A study of Mus musculus with 15 samples.

Results

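The 10 genes described here encode the kinases and scaffolds of the JNK pathway below HPK1: the MAP3 kinases Map3k1, Map3k7 and Map3k11, the MAP2 kinases Map2k4 and Map2k7, the JNK kinases Mapk8, Mapk9 and Mapk10, and the scaffolds Mapk8ip1 and Mapk8ip3. They were chosen by name, and all 10 were found among the 15170 genes that the 3 deposited tables of counts share. RNA-Seq was performed on pancreata of C57BL/6 mice, with 15 libraries in 6 groups and RNA of 3 mice pooled in each library. In the MC experiment, at 2 months, 3 MC libraries (HPK1-M46 transgenic) were compared with 3 libraries of B control mice. In the HC experiment, at 4 months, 3 libraries labelled HC (HPK1/B) were compared with 2 libraries of wild-type (WT) mice. Ages are those of the labels, and the text of the study describes younger HC mice and controls in a cerulein experiment. Mice of both experiments received cerulein, an analogue of cholecystokinin that drives acinar secretion to excess and induces pancreatitis. In the third experiment, 2 KMC libraries (M46/Ras/B, 9 months) were compared with 2 KC libraries (Ras/B, 15 months). KC and KMC share the Ras/B background of their labels, so that only M46 and age are named as different between them, and their samples are pancreas in the labels and PDAC in the methods of the study. The transgenes sit behind a CMV-LSL cassette, and Bac-cre, a tamoxifen-inducible Cre under the acinar elastase I promoter, removes the stop in acinar cells. HPK1 is the active kinase and M46 its kinase-dead mutant, and in all groups the cells keep their own Map4k1 gene.

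HPK1 is a MAP4 kinase, the uppermost tier of a relay in which each kinase phosphorylates the next. MAP3 kinases receive its signal and phosphorylate the MAP2 kinases MKK4 and MKK7, which in turn phosphorylate JNK on a threonine and a tyrosine of its activation loop. Active JNK phosphorylates c-Jun and related transcription factors, and in the pancreas JNK is activated early in cerulein pancreatitis. Because the relay runs through phosphorylation, RNA levels give the amount of message for its parts and do not measure its activity.

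The coding sequences around the activation loop are shown because the loop is what MKK4 and MKK7 act on, and because they show how far the 3 JNK messages differ where their proteins are most alike. Capitals mark the codons for threonine, proline and tyrosine. Sequences are of the GENCODE vM21 principal transcripts (GRCm38), given 5′ to 3′ on the coding strand.
Mapk8: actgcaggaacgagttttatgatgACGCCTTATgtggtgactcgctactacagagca
Mapk9: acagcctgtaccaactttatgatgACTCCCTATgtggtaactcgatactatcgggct
Mapk10: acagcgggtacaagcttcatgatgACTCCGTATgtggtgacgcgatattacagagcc
Over these 57 bases Mapk8 differed from Mapk9 at 15 and from Mapk10 at 12, and Mapk9 differed from Mapk10 at 13. The 3 codons lie at chr14:33393003-33393011 on the minus strand in exon 6 of the Mapk8 transcript, at chr11:49872830-49872838 on the plus strand in exon 6 for Mapk9, and at chr5:102989681-102989689 on the minus strand in exon 7 for Mapk10. The longest run of identical coding bases was 27 between Mapk8 and Mapk10 and 23 in both other pairs. No 100-base window of any annotated transcript, the length of 1 read, was shared between members.

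Other genes share sequence with some members. Of the 100-base windows of Map2k7, 30.4% also lie in Gm49320, an annotated gene on the same strand that runs over Map2k7. In the MC table the name Map2k7 is paired with the identifier of Gm49320, whereas the HC and KMC tables count Map2k7 under its own identifier and list Gm49320 at 0 counts in 9 libraries. For this reason no level per length is given for Map2k7 in the MC experiment, and its values there are for another gene model than in the others. Exons of Eme2 on the same strand cover 10.7% of the exon bases of Mapk8ip3, and those of Mrps34 on the opposite strand cover 8.99%. The antisense gene AC134563.1 covers 9.79% of Map3k11. Values of Mapk8ip3 and Map3k11 may hold or lack reads of these overlaps.

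Deposited counts summed to between 29766575 and 38745907 per library. Digestive enzymes and other acinar markers (32 genes) made up 38.3 to 57.5% of counts for the MC experiment, 5.95 to 9.26% for HC and 25.9 to 70.8% for KMC. Levels are given as CPM, the usual count normalised to library size, with library sizes scaled by the TMM method within an experiment. Map4k1, which encodes HPK1, was at 7.54 against 3.42 CPM in MC and at 8.64 against 1.05 CPM in KMC. It was lower in the libraries labelled HC, at 6.76 CPM against 13.5 CPM in their controls. This goes against the label only if RNA of the transgene is counted on Map4k1. Whether RNA of the transgenes is counted on Map4k1 is not given in the sources used here. None of these differences passed (smallest adjusted p = 0.0796 by the edgeR quasi-likelihood test, Benjamini-Hochberg adjusted). Ddx3y, a Y-linked gene, was at 48.3 CPM and Xist at 0.761 CPM in library HC 3, unlike the other 4 libraries of its experiment, in which Ddx3y had 0 counts. Ddx3y was at 10.7 and 17.3 CPM in KC, and Xist at 405 and 306 CPM in KMC, so that sex, age and M46 cannot be told apart in that experiment. Xist was not analysed in the MC experiment. In bulk tissue, fewer cells of a type and less RNA per cell cannot be told apart.

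All 3 tiers of the pathway and both scaffolds were detected in every library, and Mapk9 was the JNK gene with the most counts. Before any comparison, levels were ordered within each group per kilobase of merged exons (CPM per kb). In the controls of MC, Map3k11 led with 8.74 ± 0.925 CPM per kb (SD, n = 3), followed by Mapk9 (7.35 ± 1.31), Map3k7 (6.82 ± 0.788), Map2k4 (6.64 ± 0.243) and Mapk8ip1 (6.46 ± 0.691), and the ranges of neighbours among these 5 overlapped. Map3k1 (4.34 ± 0.504), Mapk8ip3 (1.85 ± 0.287), Mapk8 (1.02 ± 0.0451) and Mapk10 (0.0528 ± 0.0145) followed, each below all values of the gene before it. With merged exons, Map3k11, which encodes the mixed-lineage kinase MLK3, was first in all 6 groups and Mapk10, the JNK3 gene known for its expression in neurons, was last in all 6. In MC libraries the order began with Map3k11 (9.62 ± 0.755) and ended with Mapk8 (0.925 ± 0.0428) and Mapk10 (0.0641 ± 0.0256). In the libraries labelled HC, Map3k11 was at 16.5 ± 2.05, Map2k4 at 14.1 ± 0.897, Mapk8 at 2.24 ± 0.141 and Mapk10 at 0.139 ± 0.0421 CPM per kb (SD, n = 3). In KC, Map3k11 was at 7.22 ± 1.39 and Mapk9 at 6.57 ± 1.03 CPM per kb (SD, n = 2), whereas in KMC Map3k11 was at 7.46 ± 1.19 and Mapk9, at 3.94 ± 1.16, lay below Map2k4 and Map3k1, whose ranges overlapped with it.

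The order depended on the length used. Mapk8 (ENSMUSG00000021936, chr14:33377898-33447158, minus strand) and Mapk9 (ENSMUSG00000020366, chr11:49846751-49886421, plus strand) encode JNK1 and JNK2, the JNK kinases made in most tissues. Merged exons of Mapk8 span 11444 bases, and its principal transcript has 1528 bases, of which 1281 are coding. Counts are per gene and can include reads outside that transcript. The shorter length can therefore overstate Mapk8, and likewise Map2k7 (1626 bases), and the share of such reads was not measured. Per kilobase of merged exons, Mapk9 was 6.14 to 8.1 times as abundant as Mapk8 in the 6 libraries of the MC experiment. Per kilobase of the principal transcript, a length chosen after the data were seen, the same ratio was 1.19 to 1.57 there and 0.685 to 0.917 in the 5 libraries of the HC experiment. It was 0.857 to 1.7 in the 4 libraries of the KMC experiment, against 4.43 to 8.77 by merged exons. The order of Mapk8 and Mapk9 thus turned with the transcript assumed in the HC experiment and in part of the KMC experiment. With this length Map3k11 was first in MC and KMC only, behind Map2k7 in the libraries labelled HC and their controls, and behind Mapk9 in KC and the controls of MC. Mapk10 stayed last in all 6 groups with either length.

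**Figure D1:**
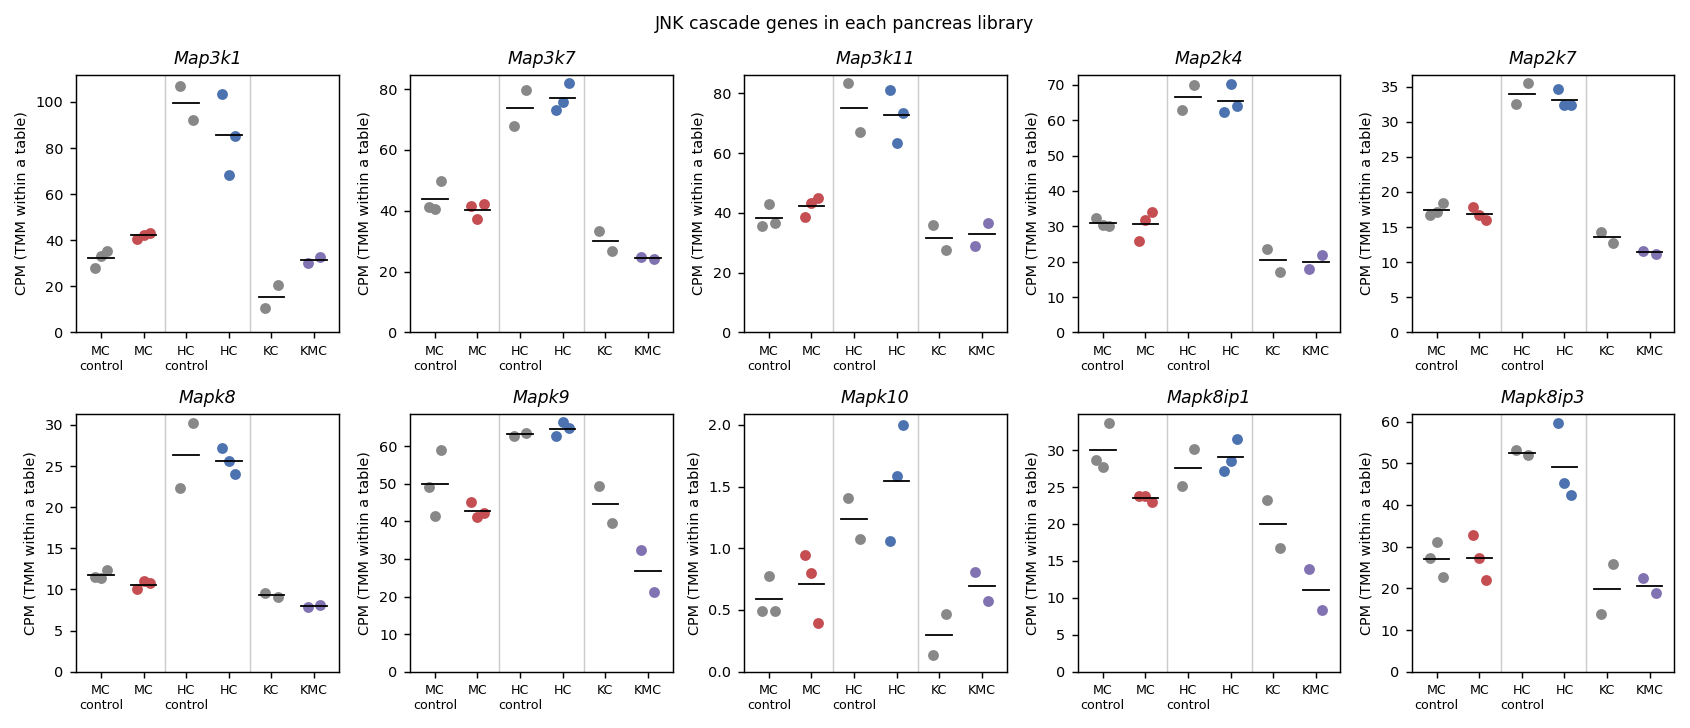
Level of each of the 10 genes in CPM (TMM scaling within an experiment) in every library, with 1 point per library and a bar at the group mean, on axes that start at 0. Map3k1 points of MC and of KMC lie above all points of their own controls, Mapk8ip1 points lie below, and the HC groups overlap in all 10 genes; Map2k7 was counted on another gene model in the MC experiment.

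By CPM from total counts, all 5 libraries of the HC experiment had more Map3k7, Map2k4, Map2k7, Mapk8, Mapk9 and Mapk8ip3 than any of the other 10 libraries (6 of 10 members, with Map2k7 counted on another gene model in the MC experiment). Mapk9, for example, was at 62.3 to 65.7 CPM there, at 41.7 to 51.3 in the MC experiment and at 24.1 to 45.9 in the KMC experiment. When the acinar list was left out of the total, this held for Map2k4 and Mapk8 only (2 of 10), and Mapk9 was at 66.9 to 72.4, 82.1 to 98.1 and 62.0 to 82.5 CPM. Mapk10 was at 1.06 to 1.98 CPM by total counts in the HC experiment and at 0.0662 to 1.24 CPM in the others, and the 9 neural markers summed to 28.5 to 49.9 CPM there against 7.12 to 13.6 CPM elsewhere (TMM). No test was made across experiments, which differ in labelled age and were tabulated separately. The share of all genes that were highest in the HC experiment was not counted, so these counts are not read as a result about the members. Acinar markers made up 5.95 to 9.26% of counts in the HC experiment and 25.9 to 70.8% elsewhere.

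To learn whether expression of kinase-dead HPK1 in acinar cells was accompanied by a change in message for the relay, MC libraries were compared with their controls. No member passed the thresholds of the study (adjusted p of at most 0.05 and absolute log2 fold change of at least 1) by edgeR, as for 0% of the 13902 genes tested. DESeq2 called 0 members but 453 of these genes. At an unadjusted p under 0.05 there were 2 members, Map3k1 and Mapk8ip1, against 14.7% of all genes. Groups did not overlap for 1 member that was higher in MC (background 10.9%) and 2 that were lower (background 9.89%). The median log2 fold change was -0.03 over the members and -0.02 over all genes.

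Map3k1 (ENSMUSG00000021754, chr13:111746428-111808993, minus strand) encodes MEKK1, a MAP3 kinase upstream of MKK4. It was at 40.4, 42.5 and 43.3 CPM in MC and at 28.2, 33.2 and 35.5 CPM in controls. All MC libraries were above all controls, with a log2 fold change of 0.38 (95% interval 0.11 to 0.66, edgeR adjusted p = 0.234). Map3k7, which encodes TAK1, and Map3k11 overlapped between the groups, at log2 fold changes of -0.12 and 0.14. Their intervals ran from -0.40 to 0.16 and from -0.14 to 0.42.

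Map2k4 and Map2k7 encode MKK4 and MKK7, the kinases directly above JNK. Map2k4 was at 25.8 to 34.1 CPM in MC and at 30.2 to 32.3 CPM in controls. Map2k7 was at 16.1 to 17.9 CPM and at 16.7 to 18.4 CPM. Both were level between the groups within their spread, with log2 fold changes of -0.02 (interval -0.32 to 0.28) and -0.04 (interval -0.31 to 0.22).

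Mapk8 was at 10.04, 10.97 and 10.8 CPM in MC and at 11.5, 11.4 and 12.3 CPM in controls. The groups did not overlap, but the difference was small, with a log2 fold change of -0.14 (interval -0.42 to 0.14, edgeR adjusted p = 0.557). Mapk9 was at 45.0, 41.2 and 42.2 CPM in MC and at 49.1, 41.4 and 59.1 CPM in controls. Here control 2 lay among the MC libraries and control 3 stood above the rest, and the log2 fold change was -0.22 (interval -0.56 to 0.12). Mapk10 was near the limit of counting, with 16 to 34 counts per library in MC and 11 to 26 in controls, and its interval of -0.75 to 1.26 includes no change and a doubling alike.

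Mapk8ip1 (ENSMUSG00000027223, chr2:92383676-92401263, minus strand) encodes JIP1, a scaffold that holds MLK, MKK7 and JNK together. It was at 23.8, 23.7 and 23.0 CPM in MC and at 28.6, 27.7 and 33.6 CPM in controls. All MC libraries were below all controls, with a log2 fold change of -0.35 (95% interval -0.62 to -0.08, edgeR adjusted p = 0.258). Mapk8ip3, which encodes JIP3, a scaffold that also links cargo to kinesin, was at 21.9 to 32.9 CPM in MC and at 22.7 to 31.0 CPM in controls, and did not separate the groups.

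Acinar, leukocyte and fibroblast markers leaned to one side in this comparison, while their summed levels overlapped between the groups. Median log2 fold changes of the ductal, endothelial, islet and neural lists were 0.05, 0.19, -0.12 and 0.05. Acinar markers made up 38.3 to 48.2% of counts for MC and 43.6 to 57.5% for controls, and their median log2 fold change was -0.53. All 12 leukocyte markers had a log2 fold change above 0 (background 46.9%), with a summed level of 274 to 384 CPM in MC and 103 to 278 CPM in controls, and all 8 fibroblast markers had one too. None of these leukocyte and fibroblast markers passed by edgeR, and their part in the values of Map3k1 and Mapk8ip1 was not tested. With total counts as library size, where the median of all genes was 0.29, Map3k1 was at 0.71 and Mapk8ip1 at -0.01, and Mapk8, Mapk9 and Map3k7 turned to 0.19, 0.13 and 0.22.

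**Figure D2:**
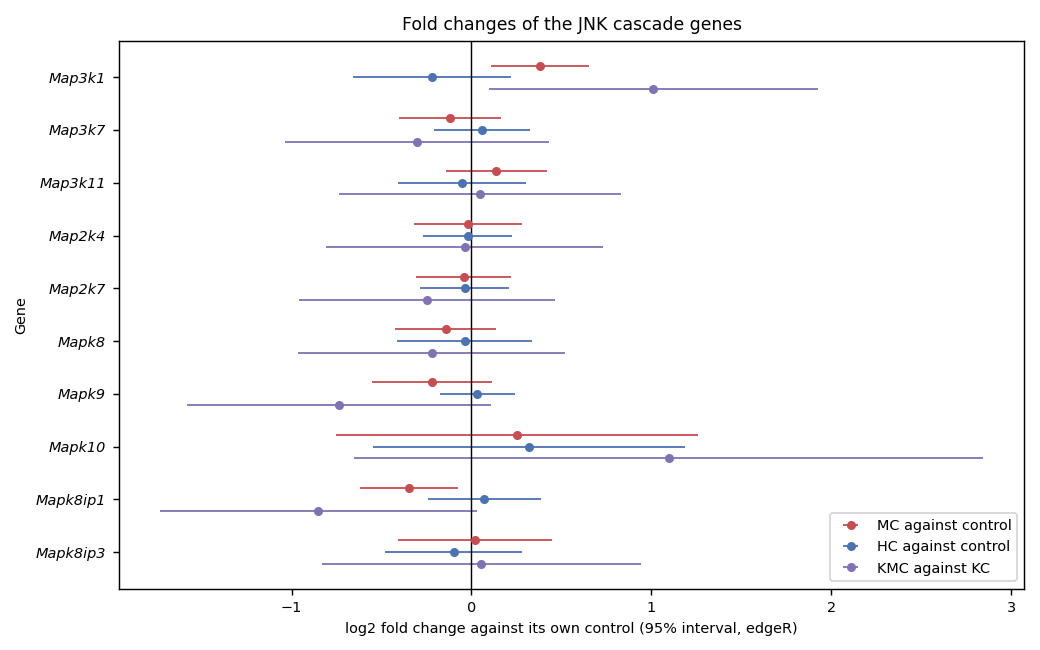
Log2 fold change of each gene against its own control, with the 95% interval of the edgeR fit, in the 3 comparisons (3 against 3, 3 against 2 and 2 against 2 libraries). In the MC and HC comparisons 9 of 10 intervals lie inside -1 to 1, whereas in KMC against KC 5 do.

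The libraries labelled HC were meant to show the relay with active HPK1, although their Map4k1 level was below that of their controls. In these libraries, all 10 members overlapped with their controls, against a background of 33.5% of 18407 genes whose groups were apart. By edgeR 0 members were called, against 0.565% of all genes (0.739% by adjusted p alone), and 0 members had an unadjusted p under 0.05 (all genes 15.9%). DESeq2 called 0 members but 467 of the 18407 genes. The smallest adjusted p of a member was 0.618. The intervals bounded the differences: 9 of 10 intervals lay inside -1 to 1 on the log2 scale and 8 of 10 inside -0.5 to 0.5, the exceptions to the latter being Map3k1 and Mapk10.

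Mapk9 was the steadiest member, at 62.6, 66.3 and 64.8 CPM in the libraries labelled HC and 62.8 and 63.4 CPM in controls. Its log2 fold change was 0.03 (interval -0.17 to 0.24). Mapk8 was at 24.02 to 27.2 CPM against 22.4 and 30.2 CPM, so that the controls spanned the HC values. Both MAP2 kinases were within 0.04 of no change on the log2 scale, at -0.02 for Map2k4 (interval -0.27 to 0.23) and -0.04 for Map2k7 (interval -0.28 to 0.21).

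Map3k1 was at 103, 68.1 and 85.4 CPM in the libraries labelled HC and at 107 and 92.4 CPM in controls. HC 1 lay between both controls and the other two lay below, and the log2 fold change was -0.22 (interval -0.66 to 0.22). Mapk8ip1 was at 27.1 to 31.6 CPM against 25.1 and 30.1 CPM, with a log2 fold change of 0.07 (interval -0.24 to 0.39). Mapk8ip3 was at 59.6 CPM in HC 1 but at 45.3 and 42.4 CPM in HC 2 and HC 3, against 53.1 and 52.1 CPM in controls. The acinar shares overlapped here (5.95 to 9.26% against 7.06 and 9.01%), while the log2 fold change was below 0 for 11 of 12 leukocyte markers (background 50.2%), of which 1 passed, and above 0 for all 10 islet markers (background 49.8%). Without HC 3, the library unlike the others in Ddx3y and Xist, 0 members were called.

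On the Ras/B background, KMC was compared with KC, with 2 libraries in each group. Of the 10 members 0 were called by edgeR, against 0.0191% of the 15733 genes tested, and 1, Map3k1, had an unadjusted p under 0.05 (all genes 25.6%). DESeq2 called 0 members but 2159 of the 15733 genes. Groups did not overlap for 2 members that were higher (background 34.4%) and 5 that were lower (background 30.9%). The median log2 fold change was -0.13 over the members and 0.03 over all genes.

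Map3k1 was at 30.1 and 32.8 CPM in KMC and at 10.6 and 20.5 CPM in KC. Its log2 fold change of 1.01 (interval 0.10 to 1.92, edgeR adjusted p = 0.168) was above 0 with each of the 5 library scalings tried. The median of all genes was 0.03 with TMM and 0.0002 to 1.47 with the other scalings. These shifts could not have turned the sign of Map3k1. Map3k1 passed with total counts as library size (2.38, edgeR adjusted p = 0.00823). It also passed by edgeR in a fit that added the 5 HC and WT libraries (1.03, adjusted p = 0.0494). In that fit Mapk9 passed too (-0.71, edgeR adjusted p = 0.0486). Both thresholds of the study were met by 4715 of 15733 genes with total counts and by 3230 of 18681 genes in that fit. Among the JNK genes, Mapk9 was at 32.3 and 21.2 CPM in KMC and at 49.5 and 39.6 CPM in KC. Its log2 fold change of -0.74 (interval -1.58 to 0.11, edgeR adjusted p = 0.238) was below 0 with 4 scalings and 0.66 with total counts alone. Mapk8 was at 7.88 and 8.07 CPM against 9.52 and 9.09 CPM, with a log2 fold change of -0.22 (interval -0.96 to 0.52) that was above 0 with 3 of the 5 scalings. Mapk10 had 33 and 48 counts in KMC and 12 and 2 in KC, and with so few counts its log2 fold change of 1.1 has an interval from -0.65 to 2.85.

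Mapk8ip1 was at 13.8 and 8.28 CPM in KMC and at 23.2 and 16.7 CPM in KC. The log2 fold change was -0.85 (interval -1.73 to 0.03, edgeR adjusted p = 0.205). As for Mapk9, it was below 0 with 4 scalings and above 0, at 0.55, with total counts alone. Map2k4 was at 17.8 and 21.8 CPM against 23.7 and 17.1 CPM, and Map3k11 at 29.1 and 36.5 CPM against 36.05 and 27.4 CPM, both overlapping. Map2k7 was at 11.6 and 11.2 CPM against 14.3 and 12.8 CPM, and Map3k7 at 24.7 and 24.1 CPM against 33.5 and 26.8 CPM. These last values did not overlap under TMM, but the log2 fold changes of -0.25 and -0.30 were above 0 with 3 of the 5 scalings. Mapk8ip3 was at 22.4 and 18.96 CPM against 13.9 and 25.8 CPM.

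Beside this dependence on scaling, acinar markers made up 50.3 and 25.9% of counts for KMC but 70.8 and 62.0% for KC. With total counts as library size the median of all genes was 1.47 on the log2 scale and that of the members was 1.31. A change of library size moves all genes by nearly the same amount, so places relative to the median gene carry over from TMM. Mapk9 and Mapk8ip1 thus stayed below the median gene and Map3k1, at 2.38, above it. All 12 leukocyte markers and all 8 fibroblast markers were above every KC value in KMC (background 34.4% of genes). Summed levels of the leukocyte markers were 218 and 443 against 39.5 and 68.1 CPM. None of these markers passed by edgeR, and the part of cell composition in the values of the members was not tested.

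**Figure D3:**
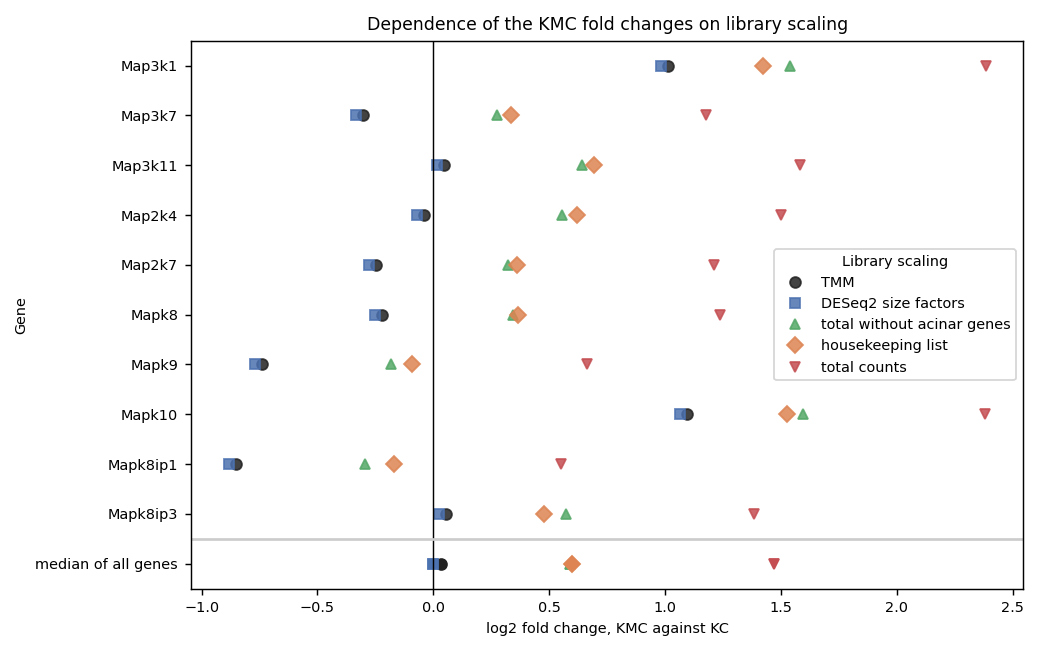
Log2 fold change of each gene, and the median of all genes (bottom line), in KMC against KC under 5 library scalings, 1 symbol per scaling. Symbols of all genes shift to the right by a like amount from TMM to total counts, where the median of all genes is 1.47. The places of Mapk9 and Mapk8ip1 to the left of that median are therefore largely kept by the shift itself.

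Shares within a library need no scaling between libraries, but those of the MC experiment include the other gene model of Map2k7 in their total. Of the counts of all 10 members, Map3k1 took 14.6 to 15.5% in MC and 10.4 to 12.0% in controls, and 15.8 and 17.9% in KMC against 4.95 and 10.4% in KC. In the HC experiment it took 14.3 to 20.6%, with overlapping groups. Mapk8ip1 took 8.26 to 8.62% in MC against 10.01 to 11.3% in controls, and 7.27 and 4.52% in KMC against 10.8 and 8.52% in KC. Its share was 4.84 to 6.29% in the HC experiment. Mapk9 took 23.1 and 20.2% in KC but 16.9 and 11.5% in KMC. KC 1, with the largest acinar share of the 15 libraries (70.8%), also had the lowest share of Map3k1 and the highest of Mapk9. Whether the acinar share is linked to those of the members was not tested.

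**Figure D4:**
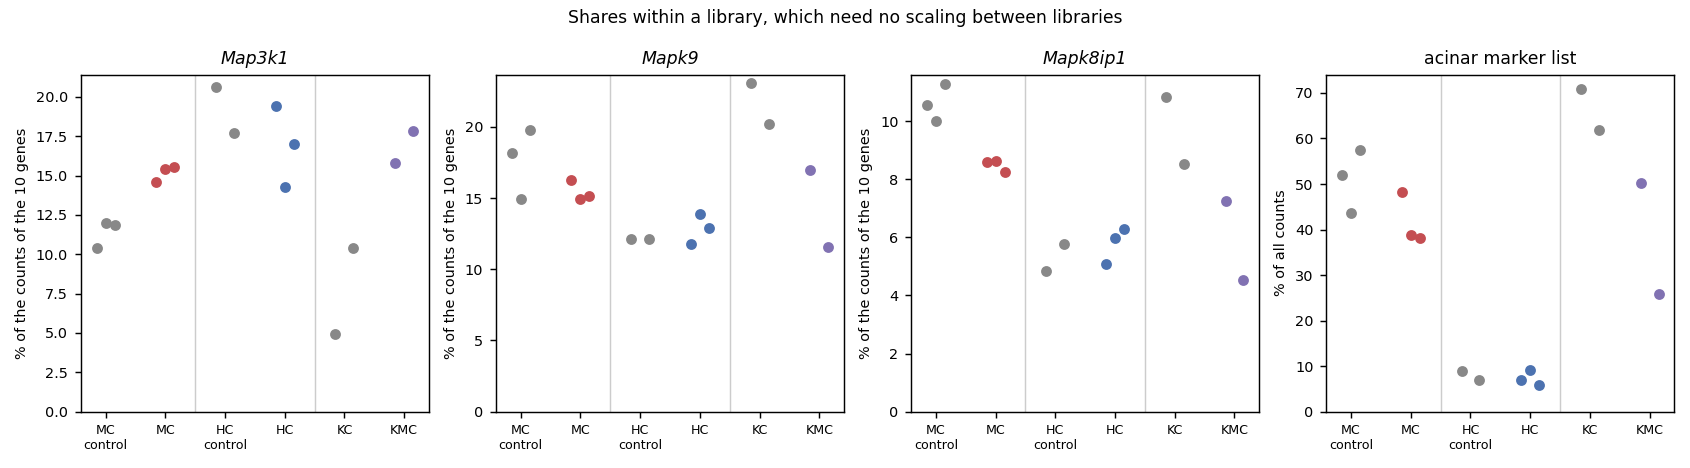
Share of the summed counts of the 10 genes taken by Map3k1, Mapk9 and Mapk8ip1 (first 3 panels) and share of all counts taken by the acinar list (last panel), in percent, with 1 point per library. Mapk8ip1 takes 4.84 to 6.29% in the HC experiment, where the acinar share is 5.95 to 9.26%. The lowest Mapk8ip1 share is that of KMC 2 (4.52%), at an acinar share of 25.9%. KC 1 has the lowest Map3k1 share and the highest acinar share. Whether these shares are linked was not tested.

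The balance between gene pairs of 1 tier was tested as a log2 ratio of counts within a library, which also needs no scaling. Counts of Mapk9 were 3.64 to 4.80 times those of Mapk8 in the MC experiment and did not separate the groups (difference of the mean log2 ratios -0.06, exact two-sided permutation test p = 0.8). In the HC experiment the difference was 0.06 (exact permutation p = 0.8). The ratio was 4.1 and 2.62 in KMC but 5.2 and 4.36 in KC, a difference of -0.54 with no overlap (exact permutation p = 0.33, the smallest that 2 against 2 libraries allow). Map2k7 (on the other gene model in the MC experiment, in both of its groups) to Map2k4 differed by -0.02 in MC, -0.02 in HC and -0.22 in KMC, with overlapping groups each time (exact permutation p = 1, 0.8 and 0.667). With 6 ratios tested, adjusted p-values were 0.96 or 1. With 3 against 3 or 3 against 2 libraries, the exact permutation p can be no lower than 0.1 before adjustment. No ratio could therefore pass the adjusted p threshold of the study in any of the comparisons. These p-values cannot decide whether the balance changed, and the values show only the size of each difference and whether the groups overlapped.

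Because MC and KMC both carry M46 and have separate controls, the values of the members were set side by side. All 10 members had the same sign in both comparisons, and their log2 fold changes had a Pearson's r of 0.952 over 10 genes (0.928 without Map3k1 and Mapk10). Over 13699 genes, 76.2% had the same sign and r was 0.606. Genes are not independent replicates, and Map2k4 (-0.02 and -0.04) and Mapk8ip3 (0.02 and 0.05) were near 0 in both comparisons. The signs of several members depend on the scaling in MC and in KMC. The acinar share overlapped in MC and was lower in KMC than in KC, with median log2 fold changes of -0.53 and -1.97 for acinar markers. All 12 leukocyte markers were above 0 in both (background 46.9% in MC and 51.3% in KMC), and the part of cell composition was not tested. Between the MC and HC comparisons 4 of 10 members had the same sign, against 39.6% of 13827 genes.

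**Figure D5:**
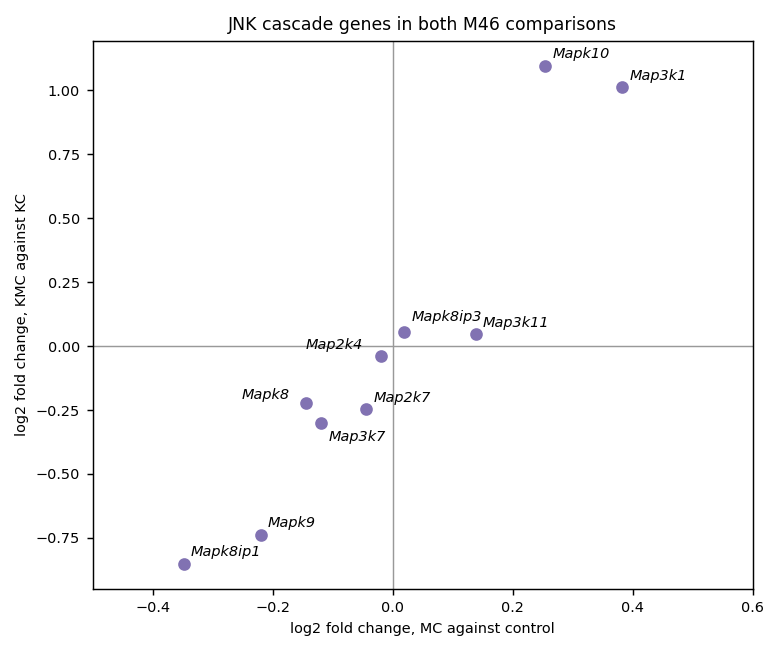
Log2 fold change of the 10 genes in MC against control (x) and in KMC against KC (y), 1 point per gene, TMM scaling. Points run from Mapk8ip1 (-0.35 and -0.85) at the lower left to Map3k1 (0.38 and 1.01) and Mapk10 (0.25 and 1.1) at the upper right.

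Tests of the differences themselves gave no call among the members. The effect in MC minus that in the libraries labelled HC was 0.59 for Map3k1 (standard error 0.31, edgeR adjusted p = 0.423) and -0.43 for Mapk8ip1 (standard error 0.28, edgeR adjusted p = 0.512), where 0.966% of 14905 genes were called by adjusted p. The KMC effect minus the MC effect was -0.57 for Mapk9 (edgeR adjusted p = 0.223), -0.56 for Mapk8ip1 (adjusted p = 0.266) and 0.57 for Map3k1 (adjusted p = 0.315), where edgeR called 0% of genes and 22.9% had an unadjusted p under 0.05. At an unadjusted p under 0.05 there were 0 members in either contrast, and DESeq2 called 0. For KMC minus MC, leaving out 1 library leaves KC or KMC with a single library, which is then assumed to vary like the other groups: leaving out KC 2 gave 1 call, Map3k1 (log2 difference 1.14, adjusted p = 0.0203), and leaving out KMC 1 gave 2, Mapk8ip1 (-0.96, adjusted p = 0.0379) and Mapk9 (-0.90, adjusted p = 0.0418).

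The other genes of the pathway were read from 7 lists of 46 genes, and 0 of 46 passed in each comparison by edgeR. At an unadjusted p under 0.05, 3 were higher and 1 lower in MC (9.2 and 5.46% of all genes), 6 higher and 4 lower in HC (8.39 and 7.47%), and 5 higher and 4 lower in KMC (16.1 and 9.48%). Of the MAP4 kinases, the tier of HPK1, 7 of 7 had a log2 fold change above 0 in KMC under TMM (background 51.3%, median 0.37), against 3 of 7 in MC (background 46.9%, median -0.03) and 2 of 7 in HC (background 49.8%, median -0.14). In KMC, Map4k1 had the smallest p of them, at 2.99 (adjusted p = 0.0796). Of 14 other MAP3 kinases, the smallest p belonged to Map3k9 in MC (MLK1, -0.41, adjusted p = 0.252), Map3k20 in HC (ZAK, -0.51, adjusted p = 0.249) and Map3k10 in KMC (MLK2, -1.03, adjusted p = 0.155). Among JNK phosphatases, which end the signal, Dusp8 was at 3.87 against 15.0 CPM in KMC (log2 fold change -1.97, adjusted p = 0.0796) and at 6.11 against 10.4 CPM in MC (-0.76, adjusted p = 0.394), and Dusp16 led in HC (-0.31, adjusted p = 0.257). Of the JNK substrates, Jund was at 22.02 against 47.3 CPM in KMC (-1.1, adjusted p = 0.113), Jun at 86.7 against 105 CPM in HC (-0.28, adjusted p = 0.254), and Itch at 45.3 against 52.1 CPM in MC (-0.20, adjusted p = 0.479).

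Among 4 other scaffolds, the smallest p was that of Mapkbp1 in MC (0.17, adjusted p = 0.587) and in KMC (1.1, adjusted p = 0.176), and of Mapk8ip2 in HC (0.71, adjusted p = 0.315). The parallel p38 arm was led by Mapk12 in MC (-0.37, adjusted p = 0.344) and by Mapk13, which was at 84.98 against 36.5 CPM in HC (1.22, adjusted p = 0.252) and at 8.67 against 22.1 CPM in KMC (-1.35, adjusted p = 0.114). The ERK arm was led by Map2k1 in MC (0.37, adjusted p = 0.282), Mapk3 in HC (0.58, adjusted p = 0.118) and Map2k2 in KMC (-0.96, adjusted p = 0.196). All adjusted p-values of these lists are from edgeR's quasi-likelihood test over all genes.

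For each JNK gene, the genes with the most similar pattern were those with the smallest root mean square difference of centred log2 CPM over the 15 libraries, among 13325 genes. For Mapk8 they were Dyrk1a (0.0611), Wac (0.0777) and Mosmo (0.0815), where the median gene was 0.319 away. Mapk8 varied little itself, with a root mean square of 0.119. For Mapk9 they were Fundc1 (0.0616), Atp5b (0.0618) and Pex2 (0.0641), against a median of 0.373. Mapk10 had no gene as near, with Nrxn2 at 0.221, Pkhd1l1 at 0.247 and Steap4 at 0.270 against a median of 0.641, and its mean level of 0.867 CPM leaves more counting error in its pattern.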

How the data were processed

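The authors aligned 100-bp paired-end reads to GRCm38 with STAR, and the submitters' notes name STAR 2.6.1a, HTSeq 0.6.1 and bcl2fastq 2.17.14. The deposited counts are whole reads per GENCODE gene, without normalization, in 3 tables of 15175, 49585 and 49585 genes. The authors also deposited columns of a DESeq2 comparison (fold changes and p-values) for MC, which were not used. Positions and lengths are from GENCODE vM21. For MC, 14 identifiers were matched by the file's own gene name.

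Within each pair of groups, genes were filtered with filterByExpr, scaled by TMM and compared by the quasi-likelihood F test of edgeR 4.0.16 in R 4.3.3, with Benjamini-Hochberg adjustment over all genes, and the members were read from that fit. Each standard error was derived as the log2 fold change over the root of its F statistic, and intervals (95%) use the total degrees of freedom of the fit. Differences between effects were fitted over all 15 libraries. Ratios were tested by exact permutation (SciPy 1.17.1). The tests were checked on simulated counts. Replicates of a group differed by 42.3 to 547 chi-square units per gene, far above counting error, and no library was counted as a repeat. The labels do not say that replicates pair across groups, and p-values measure the spread between pooled libraries.

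The members and lists were chosen with earlier results of these data known. All 10 members are named, and of each pathway list the gene with the smallest p in a comparison. Labels name Trizol and a KAPA stranded kit for part of the libraries, and the methods RNeasy and TruSeq stranded.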

Additional observations from a re-analysis of the deposited data

How the results depend on the processing

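Of 829 member values under an alternative, 7 passed an adjusted p of 0.05, all with the sign of the main value. A further 109 passed neither way and had the opposite sign. Of these, 44 came from leaving out 1 library and 25 from total counts as library size. Genes called in MC were 0, against 453 by DESeq2, 1 with total counts, 2 with the housekeeping list and 0 to 718 when 1 library was left out (718 without control 2, 171 without MC 1). In HC they were 104, against 467 by DESeq2, 49 with the total outside acinar genes, 395 with no filter, 1 in a fit of 9 libraries and 0 to 379 when 1 library was left out (379 without HC 1, 3 without HC 3, 0 without HC 2 or either control). In KMC they were 3, against 2159 by DESeq2, 4715 with total counts, 1737 with the total outside acinar genes, 895 with the housekeeping list, 9 with no filter, 3230 in a fit of 9 libraries and 0 to 2312 when 1 library was left out (2312 without KMC 1, 76 without KMC 2, 0 without either KC library). Members called were 0 in the 3 comparisons and under all alternatives in MC and HC; in KMC total counts gave 1 (Map3k1) and the fit of 9 libraries 2 (Map3k1 and Mapk9), with the cause not tested. For KMC minus MC 0 to 2 were called when 1 library was left out. The members' median log2 fold change was 0.28 with total counts in MC, and in KMC 1.31 with total counts, 0.45 outside acinar genes and 0.42 with the housekeeping list.

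With the replicate number as a block, 0 genes were called in MC, 339 in HC and 2464 in KMC, and 0, 0 and 1 members (Map3k1, adjusted p = 0.0498). The labels number replicates alike in each group. Deviations of same-numbered libraries correlated at 0.0608, 0.285 and -0.284 in MC, 0.182 and 0.152 in HC and 0.0353 in KMC. With 2 libraries in a group the deviations mirror each other, so these few values cannot decide whether the numbers pair the libraries. Among the 10 members the block changed no other call. The difference in the log2 ratio of Mapk9 to Mapk8 ran from -0.17 to 0.03 in MC, -0.15 to 0.27 in HC and -0.86 to -0.22 in KMC when 1 library was left out, and that of Map2k7 to Map2k4 from -0.17 to 0.10, -0.08 to 0.05 and -0.39 to -0.05. Depth limits Mapk10, which has 2 to 63 counts per library, and with 2 libraries a group the KMC intervals had a median width of 1.63 against 0.563 in MC.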
